A study of Homo sapiens with 22 samples.

Results

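SU-DHL4 is an established human cell line from a diffuse large B-cell lymphoma (DLBCL). Its response to 5-aza-2'-deoxycytidine (5-aza-dC) given together with trichostatin A (TSA) was described here from 4 arrays, 2 of treated and 2 of untreated cells, out of 22 in the series. The 4 arrays were chosen by their titles alone. The other 18 arrays held SU-DHL6 and HT, also from DLBCL, and Daudi, Namalwa and Raji, from Burkitt lymphoma, in the same 2 states. Each state had 2 arrays per line, except for HT, which had 1. The sample titles give 5 µM 5-aza-dC and the treatment protocol gives 3 µM. In both, 5-aza-dC was present for 6 days and 625 nM TSA for the last 24 hours, and the untreated cells received neither agent. The treated Burkitt arrays had been published earlier, per the design text, so a difference between them and SU-DHL4 cannot be told apart from a difference between those experiments.

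5-aza-dC is built into DNA during replication and traps DNA methyltransferases, so that methylation is lost as cells divide. TSA blocks histone deacetylases, which raises histone acetylation. Genes long known to rise with deacetylase inhibitors include the cell cycle inhibitor CDKN1A and the thioredoxin-binding protein TXNIP. Germinal centre B cells, from which many DLBCL are thought to derive, divide fast and are marked by BCL6, the membrane peptidase MME (CD10) and the transcription factor MYBL1.

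RNA was read on Affymetrix oligonucleotide arrays, which detect each transcript with sets of short oligonucleotides (probe sets). Values are log2 expression from robust multi-array averaging (RMA), so that a difference of 1 is 2-fold. Of 22283 probe sets, 19065 carried 1 gene symbol, and each of 11963 genes was represented by its brightest probe set, judged on the mean of the 22 arrays. All differences are treated minus untreated. Tests were limma fits over all 22 arrays, with p-values adjusted over the 11963 genes by the Benjamini-Hochberg method and called under 0.05. The labels do not say whether the duplicates of a state were grown separately. The p-values therefore measure the spread between these arrays only, which may be technical. In bulk RNA, fewer cells of a kind and less RNA per cell cannot be told apart.

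The untreated cells carried the markers of germinal centre-type B cells. The mean untreated level was 12.32 for MS4A1 (CD20), 11.05 for CD79A, 9.69 for PAX5, 11.11 for BCL6 and 9.67 for MME. LMO2, another germinal centre marker, was lower at 6.83, near the array medians of 6.77 and 6.72. Levels were 4.19 for the myeloid gene LYZ and 4.31 for the epithelial gene EPCAM, below 5.03, the upper edge of the dimmest of 10 bins of equal gene number. Other myeloid genes lay above that edge, with CD14 at 5.70, CSF1R at 6.34 and MPO at 5.35. So did KRT8 (5.60), PECAM1 (6.80) and COL1A1 (8.08), of epithelium, endothelium and stroma. The T-cell genes CD3D and CD3E read 6.55 and 7.69.

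The treated SU-DHL4 arrays had a narrower range of values than any of the untreated arrays. The interquartile range over probe sets was 2.51 and 2.59 on the untreated SU-DHL4 arrays and 2.03 and 1.96 on the treated ones. It was 2.23 and 1.99 on treated SU-DHL6 arrays and between 2.26 and 2.40 on the treated arrays of the remaining 4 lines. The highest levels came down more than the lowest went up: the 95th percentile over genes was 10.40 and 10.48 untreated and 9.66 and 9.48 treated, while the 5th percentile was 4.58 and 4.54 untreated and 4.79 and 4.83 treated. The difference between 3' and 5' probe sets of ACTB, a reading of RNA and labelling quality, was -0.76 and -0.74 on the untreated arrays and 0.07 and 0.28 on the treated ones. For GAPDH it was 0.08 and -0.04 untreated and 0.10 and 0.55 treated. The part of these differences in the results below was not tested.

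The treated minus untreated difference followed the untreated level. Over the same 10 bins the median difference was 0.31 in the dimmest, 0.53 in the third, 0.03 in the seventh and -1.34 in the brightest. The share of genes that rose was 40.9% in the dimmest bin, 53.1% to 57.4% in the second to the fifth and 3.84% in the brightest. The share that fell was 47.5%, 63.5% and 73.9% in the 3 brightest bins. Binned by the untreated level of the other 5 lines, which shares no array with the difference, it ran from 0.29 in the dimmest bin to -1.19 in the brightest. The slope on the untreated level was -0.32 in SU-DHL4, -0.21 in SU-DHL6 and between -0.15 and -0.12 in the remaining 4 lines. The cytosolic ribosomal protein genes did not follow it. Of the 1197 genes in the brightest bin, 49 encode these proteins, and their median difference was 0.21. The other 1148 had a median of -1.39, with 885 of them lower and 35 higher. Because of this slope, a level-corrected difference is given beside some results: the difference minus the smooth (lowess) trend of all genes at that untreated level.

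**Figure D1:**
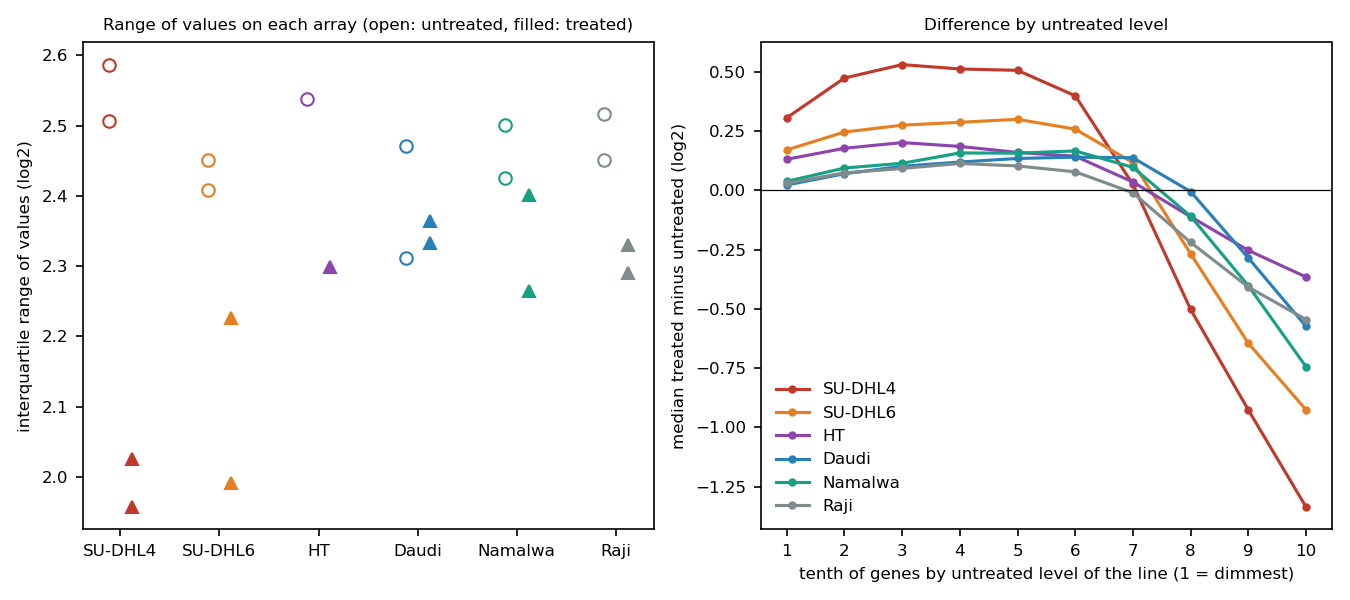
Range of values on each array and treated minus untreated difference (log2) against untreated level in bins of genes, for SU-DHL4 and the other lines. The treated SU-DHL4 arrays have interquartile ranges of 2.03 and 1.96, and the median difference in SU-DHL4 runs from 0.31 in the dimmest bin to -1.34 in the brightest.

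Over all genes, 7138 of 11963 (59.7%) passed the test, 4257 of them higher (35.6%) and 2881 lower (24.1%) after treatment. The rises were many and small and the falls fewer and larger: 906 genes rose and 2004 fell by 2-fold or more, and 25 rose and 657 fell by 4-fold or more. The median difference over all genes was 0.21. It was 0.09 after each array was centred on its median, 0.13 after quantile normalization of the deposited values, 0.02 after cyclic loess and -0.07 after the arrays were set to a common median and interquartile range. The share of calls that were higher was 59.6% as deposited and 59.3% after quantile normalization. It was 51.1% after centring, 51.4% after cyclic loess and 44.4% with a common median and interquartile range. That last scaling turned 207 calls to the opposite direction, while 2532 of the higher and 2366 of the lower calls stayed. Many of the higher calls therefore depended on the scaling, and large changes are given most weight below. The median standard error (SE) of a gene's difference was 0.19.

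The largest rise was that of TXNIP, which binds thioredoxin and restrains glucose uptake. It read 8.45 and 8.76 on the untreated arrays and 12.23 and 12.01 on the treated ones, a rise of 3.51 (SE 0.47, adjusted p = 4.79e-05). The groups lay more than 3 log2 units apart, and the difference in the other 5 lines was 2.58 to 3.47. The 250 bases before its start, printed because TXNIP led the rises, hold 18 CG dinucleotides, shown in capitals (RefSeq, GRCh38.p14, chr1:145996580-145996829, minus strand).
TXNIP: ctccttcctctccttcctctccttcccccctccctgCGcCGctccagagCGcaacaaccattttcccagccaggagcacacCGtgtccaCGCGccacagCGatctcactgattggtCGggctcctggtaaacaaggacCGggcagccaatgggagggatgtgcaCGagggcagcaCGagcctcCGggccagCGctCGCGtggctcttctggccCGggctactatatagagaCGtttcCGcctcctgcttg

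Other large rises came from genes of several functions. LGALS1, which encodes the secreted lectin galectin-1, read 7.85 and 8.32 untreated and 11.27 and 10.75 treated and rose by 2.92 (SE 0.28, adjusted p = 4.53e-06). ALDOC, a brain-type aldolase of glycolysis, read 7.46 and 7.35 untreated and 10.15 and 10.35 treated and rose by 2.84 (SE 0.38, adjusted p = 4.66e-05). The largest rises were picked among genes whose treated arrays both lay above both untreated arrays. H1-10, a linker histone, rose by 2.74 from 7.09 and 7.21 to 9.95 and 9.84 (SE 0.63, adjusted p = 0.0023). CALCOCO1, a receptor in autophagy of the endoplasmic reticulum, rose by 2.53 from 7.42 and 7.56 to 9.81 and 10.23 (SE 0.34, adjusted p = 4.99e-05). HSPA2, a heat shock protein of the testis, rose by 2.31 from 5.61 and 5.73 to 8.26 and 7.70, and the other 5 lines differed by 2.96 to 4.78. For LGALS1 the other lines differed by 2.96 to 5.01. SU-DHL4 thus lay below all 5 lines in both genes, but for LGALS1 HT (2.96) and SU-DHL6 (3.07) were close. The Burkitt lines differed by 5.00 to 5.01 there. The difference from SU-DHL6 alone did not pass for LGALS1 (-0.15, adjusted p = 0.869) or HSPA2 (-1.51, adjusted p = 0.167).

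The remaining 6 of the 12 largest rises were those of SCD5, MXRA7, TUFT1, MICALL2, KCNV1 and EFNB2, by 2.27 to 3.09. SCD5, a desaturase of fatty acids, had untreated duplicates far apart, at 5.73 and 8.18, against 9.79 and 10.30 treated. Its rise of 3.09 had an SE of 0.64 (adjusted p = 0.00117). KCNV1, a silent subunit of potassium channels, read 5.83 and 6.30 untreated and 8.29 and 8.42 treated (difference 2.29, SE 0.19, adjusted p = 1.46e-06). EFNB2, which encodes the membrane ligand ephrin-B2, rose by 2.27 (SE 0.57, adjusted p = 0.00383).

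The largest falls were larger than any rise. RGS13, a regulator of G protein signalling typical of germinal centre B cells, read 10.26 and 10.32 untreated and 4.40 and 4.62 treated, a fall to the level of the dimmest bin (difference -5.78, SE 0.71, adjusted p = 2.8e-05). The difference was -5.33 in HT and -1.12 in Daudi. PBK, a kinase of mitosis, read 9.82 and 10.003 untreated and 4.84 and 5.04 treated (difference -4.97, SE 0.34, adjusted p = 3.67e-07). The chromatin protein HMGB2 read 11.05 and 11.07 untreated and 6.45 and 6.11 treated (difference -4.78, SE 0.34, adjusted p = 5.84e-07). For both genes the difference was larger in SU-DHL4 than in each of the other 5 lines, which lay between -3.45 and -1.33 for PBK and between -2.23 and -0.74 for HMGB2.

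Falls of over 4 on the log2 scale were also found for 9 further genes of the 12 largest. RRM2, the regulated subunit of ribonucleotide reductase, read 11.89 and 12.22 untreated and 7.31 and 7.48 treated. TYMS, which makes thymidylate, read 11.63 and 12.11 untreated and 7.62 and 6.91 treated, although a second TYMS probe set had a difference of 0.37 that did not pass. Both genes supply nucleotides for DNA synthesis. BUB1B of the spindle checkpoint fell by 4.48 and MYC, a transcription factor of growth, by 4.25, from 10.96 and 11.16 to 7.03 and 6.58. POU2AF1, a B-cell coactivator, fell by 4.51 and JCHAIN, which links immunoglobulin into polymers, by 4.41. The RNA-binding protein gene HNRNPA2B1 fell by 4.37 and the fatty acid carrier gene FABP5 by 4.36. CCDC69 fell by 4.68. The largest falls were picked among genes whose treated arrays both lay below both untreated arrays, so their groups cannot overlap.

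**Figure D2:**
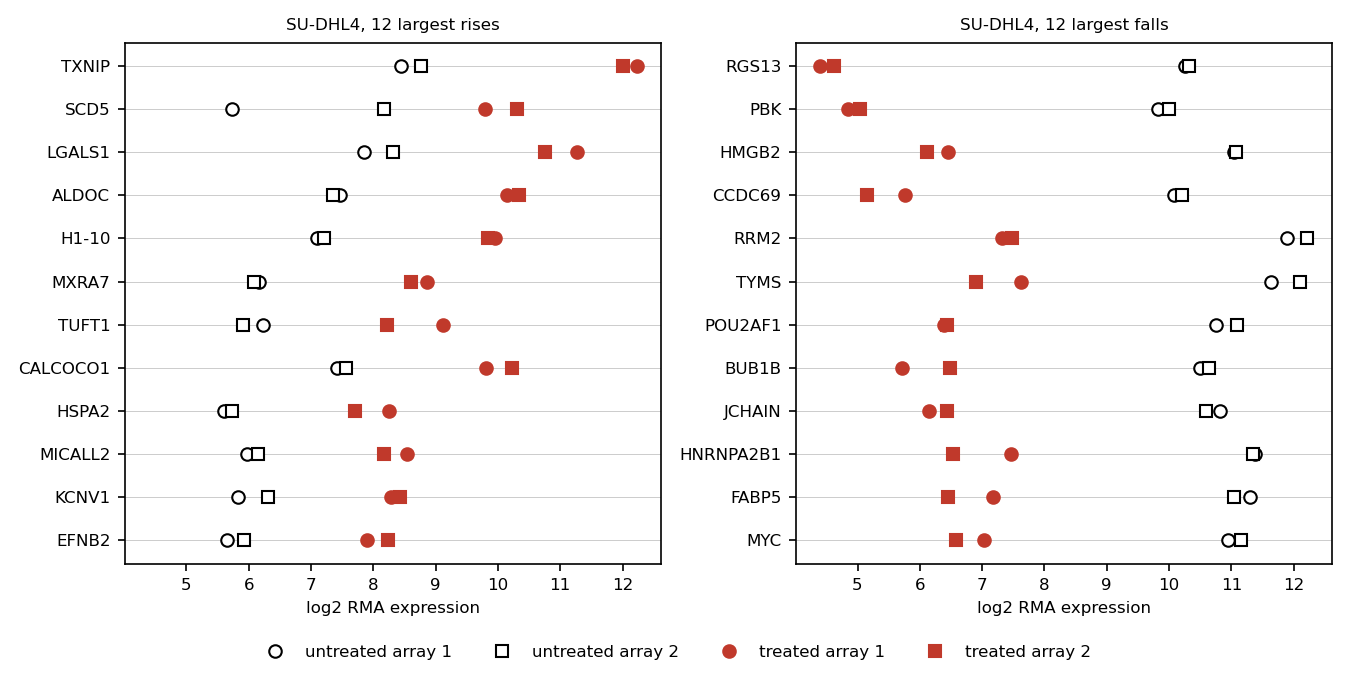
Log2 RMA expression of the 12 largest rises (left) and 12 largest falls (right) among genes past the test in SU-DHL4, with open symbols for untreated and filled symbols for treated arrays. Genes were picked only where treated and untreated arrays do not overlap, and the untreated duplicates of SCD5 lie far apart.

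Genes of cell division fell as a group. Of 52 measured genes of mitosis and the spindle, 51 fell, none rose and 1 (ZW10, -0.01) did not pass, against 24.1% of all genes and 63.5% in the bin of their median untreated level that fell. Their median difference was -2.47, against 0.21 over all genes, and -1.54 after level correction. The median untreated level of 9.45 came down to 7.03, close to the median of the arrays. Under the scalings tried the median ran from -2.59 to -1.85. In the other lines it was -1.78 in SU-DHL6, -1.65 in Namalwa, -0.64 in HT, -0.47 in Daudi and -0.14 in Raji.

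Within the list the spindle checkpoint, the mitotic kinases and the motors all held falls. Of the checkpoint, BUB1B read 10.50 and 10.65 untreated and 5.71 and 6.48 treated, and MAD2L1 read 9.67 and 9.66 untreated and 5.86 and 5.88 treated. CDC20, the activator of the anaphase-promoting complex, read 9.99 and 9.64 untreated and 5.80 and 6.21 treated (difference -3.81, SE 0.33, adjusted p = 1.95e-06). All 3 genes went from well above the array median to below it. CDK1, the main mitotic kinase, fell by 3.55. The differences of its cyclins CCNB1, CCNA2 and CCNB2 were -3.51, -3.29 and -2.77. The kinesin KIF11 fell by 3.70, while the spindle protein DLGAP5 fell by 3.80 and the condensin subunits SMC2 and SMC4 each fell by 3.58. The proliferation marker MKI67 fell by 2.10 and FOXM1, a transcription factor of G2 genes, by 2.43.

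Promoters of mitotic genes are known to carry the cell cycle homology region, TTTGAA, and CCAAT boxes. Of the mitosis genes, 44 had a RefSeq promoter window (250 bases before the start), and 22 of these (50%) held TTTGAA on either strand, as did 9.73% of the windows of all genes tested and 13.3% of all RefSeq windows. CCAAT on either strand was found in 33 of the 44 (75%), in 35.6% of the genes tested and in 32.0% of all RefSeq windows. Of all genes that fell 9.52% held TTTGAA, and of those that rose 9.73%. The windows of CDC20 (chr1:43358731-43358980, plus strand) and CCNB2 (chr15:59104896-59105145, plus strand) are shown as examples from the fallen list, from RefSeq on GRCh38.p14. Capitals mark matches to either motif. On the opposite strand TTTGAA reads as TTCAAA, and CCAAT reads in these letters as ATTGG. These matches describe the letters only.
CDC20: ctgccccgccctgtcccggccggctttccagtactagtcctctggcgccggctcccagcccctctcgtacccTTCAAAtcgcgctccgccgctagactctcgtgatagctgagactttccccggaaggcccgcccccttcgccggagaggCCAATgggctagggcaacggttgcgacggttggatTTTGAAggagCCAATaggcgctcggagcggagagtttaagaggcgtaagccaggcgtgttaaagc
CCNB2: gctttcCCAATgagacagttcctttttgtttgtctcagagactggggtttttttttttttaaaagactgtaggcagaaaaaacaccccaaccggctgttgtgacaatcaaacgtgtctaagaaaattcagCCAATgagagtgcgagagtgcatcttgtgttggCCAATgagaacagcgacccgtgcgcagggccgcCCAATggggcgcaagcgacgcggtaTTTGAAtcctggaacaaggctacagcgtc

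Genes of DNA replication fell with them. Of 44 measured members, 41 fell, none rose and 3 did not pass. Of all genes 24.1% fell, and 63.5% in the bin of this list's level. The median difference was -1.73 (-0.96 after level correction). The helicase subunit MCM7 read 10.81 and 10.73 untreated and 7.04 and 6.68 treated, and the differences of its partners MCM5, MCM4, MCM6, MCM3 and MCM2 were -3.75, -3.19, -2.89, -2.88 and -1.78. RFC3, of the clamp loader, read 10.66 and 10.94 untreated and 6.85 and 7.09 treated. Topoisomerase TOP2A fell by 3.65, RRM1 by 3.27 and the sliding clamp gene PCNA by 1.18. POLE, the catalytic subunit of a replicative polymerase, was among the 3, at 0.11 (adjusted p = 0.605).

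Among 25 measured cell cycle inhibitors and p53 target genes, 5 rose, 3 fell and 17 did not pass. Of all genes 35.6% rose and 24.1% fell. The list's median of 0.10 lay close to that of all genes. It was -0.02 after centring, -0.01 after cyclic loess and -0.15 with a common median and interquartile range, and it was also negative without the first treated array. CDKN1A (p21), which inhibits cyclin-dependent kinases, read 7.40 and 6.89 untreated and 8.94 and 8.75 treated and rose by 1.69 (SE 0.56, adjusted p = 0.019). This call was lost without the first treated array (adjusted p = 0.0801), the second treated one (0.0602) and the second untreated one (0.115). The stress gene SESN1 rose by 1.67 and SAT1, a polyamine acetyltransferase, by 1.72. CDKN2A fell by 1.94, and another CDKN2A probe set was called the opposite way. The ubiquitin ligase gene MDM2, a main p53 target, was at 0.19 (adjusted p = 0.467).

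Growth genes also fell, from levels at which 63.5% to 73.9% of genes did. MYC is the head of a list of 41 measured MYC targets and ribosome biogenesis genes, of which 34 fell, 1 rose (POLR1B, 0.93) and 6 did not pass (median -1.69). The nucleoside kinase gene NME1 fell by 3.63 and the helicase gene DDX21 fell by 2.72. The nucleolar protein genes FBL and NCL differed by -1.81 and -1.80. Of 46 mitochondrial ribosomal protein genes 42 fell and 4 did not pass (median -1.68), with MRPL16 lowest at -2.96. The 51 cytosolic ribosomal protein genes stood opposite, with 11 higher, none lower and 40 not passed (median 0.21), against 35.6% of all genes higher. RPS27 read 12.57 and 12.59 untreated and 13.24 and 13.31 treated, and RPL31 12.71 and 12.83 untreated and 13.51 and 13.38 treated. Their untreated levels, with a median of 12.96, were at the top of the arrays. Under the scalings the median of this list ran from 0.08 to 2.09 and the number higher from 4 to 49.

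**Figure D3:**
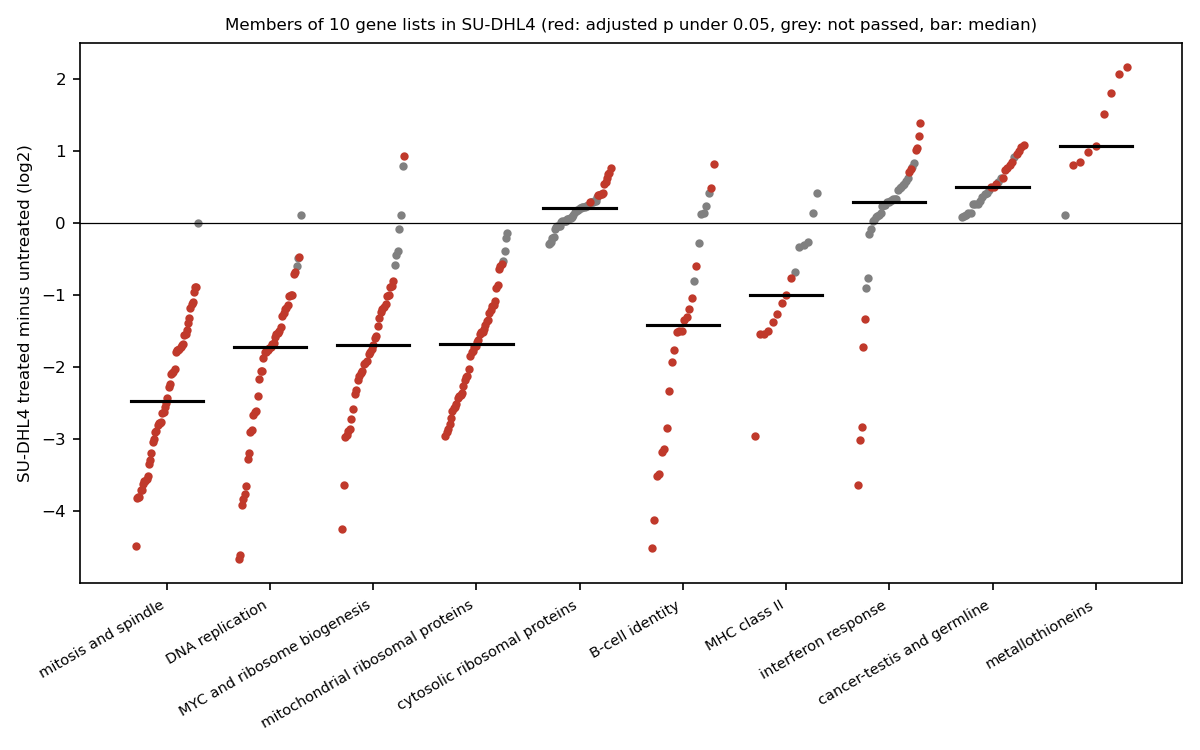
Treated minus untreated difference (log2) in SU-DHL4 for each measured member of 10 gene lists, with red points for genes past the test, grey points for the rest and a bar at each list's median. The mitosis genes lie almost wholly below 0 (median -2.47), the cytosolic ribosomal protein genes close to it (median 0.21) and the metallothionein genes above it (median 1.07).

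Other lists of housekeeping machinery were bright before treatment, with median untreated levels of 8.80 to 10.65. Their shares of falls are to be read against 24.1% of all genes and against 47.5% to 73.9% in the 3 brightest bins. Of 58 genes of the respiratory chain 37 fell and 21 did not pass (median -0.99, level-corrected 0.21), against 73.9% in the bin of this level. With a common median and interquartile range 18 of them were higher and 21 lower (median -0.07), with quantile normalization 13 and 18, and with cyclic loess 16 and 17. NDUFS1, a core subunit of complex I, fell by 3.20 from 8.79 and 9.11 to 6.12 and 5.37, whereas most subunits of cytochrome oxidase did not pass, such as COX4I1 at -0.19 and COX6A1 at -0.01. Of 30 proteasome genes 23 fell and 1 rose, PSMD2 at 0.42 (median -1.31, level-corrected -0.38). The largest difference there was that of PSMC6, -2.81, from 8.97 and 8.52 to 6.40 and 5.48.

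Of 30 chaperone genes 19 fell and 4 rose (median -1.24, level-corrected -0.24). The chaperonin genes HSPE1 and HSPD1 of the mitochondrion fell by 2.94 and 1.59, and HSPH1 of the cytosol fell by 2.90. Those that rose were HSPA2, HSPB1 (1.57), HSPA1L (1.29) and CRYAB (0.65), and HSPB1 and CRYAB encode small heat shock proteins. Of 29 genes of amino acid supply and the ATF4 response 16 fell and 2 rose (median -1.16, level-corrected -0.07). MTHFD2, a mitochondrial folate enzyme, fell by 2.65 and ATF4 itself by 1.63, while DDIT3 and PHGDH rose by 0.89 and 0.98. Of 25 genes of cholesterol and fatty acid synthesis 14 fell and 2 rose (median -0.75, level-corrected -0.13). FASN fell by 2.78, with another FASN probe set at -0.06, and SQLE by 1.81.

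B-cell genes came down from high levels, at which 63.5% of genes fell (against 24.1% of all genes). Of 26 measured B-cell identity genes 18 fell, 2 rose and 6 did not pass (median -1.42, level-corrected -0.88). The receptor components CD79A and CD79B read 11.11 and 10.99 and 9.71 and 9.66 untreated and 7.31 and 7.84 and 6.61 and 6.40 treated. MS4A1 (CD20), a surface target of therapeutic antibodies, read 12.14 and 12.51 untreated and 8.81 and 9.57 treated (difference -3.13, SE 0.60, adjusted p = 0.000681). It stayed above the array median, while CD79B ended below it.

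Among the transcription factors, POU2AF1 read 10.76 and 11.08 untreated and 6.38 and 6.44 treated, and PAX5, the factor that keeps B-cell identity, 9.72 and 9.67 untreated and 6.32 and 6.05 treated. Another PAX5 probe set was called the opposite way. SPIB fell by 1.92, BACH2 by 1.76, IKZF1 by 1.52 and IRF8 by 1.34. The complement receptor gene CR2 and CD40 rose, by 0.82 and 0.48. Of 23 genes of B-cell receptor signalling 15 fell and 1 rose (median -1.17, level-corrected -0.31). In the bin of their level 63.5% of genes fell, against 24.1% of all genes. The kinases SYK and BTK fell by 2.47 and 2.27, and the adaptor gene BLNK fell by 3.09. The phosphatase gene PTPRC (CD45) fell by 3.67. PRKCB, a kinase that relays the receptor to NF-kB, rose by 1.88.

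Germinal centre genes fell in 13 of 15 measured cases, against 24.1% of all genes and 63.5% in the bin of their level. LMO2 and S1PR2 did not pass (-0.85 and 0.32). The list's median was -2.38 (level-corrected -1.24), and it was -2.31 in HT and -2.06 in SU-DHL6. BCL6, the repressor that directs the germinal centre program, read 11.01 and 11.22 untreated and 8.66 and 8.58 treated (difference -2.49, SE 0.53, adjusted p = 0.0014). MYBL1 read 8.91 and 9.68 untreated and 6.11 and 6.23 treated, and STAP1, an adaptor, 9.79 and 10.05 untreated and 6.26 and 5.83 treated. MME fell by 1.23, and another MME probe set, at -3.08, was also called lower. The call at -1.23 was lost with a common median and interquartile range, with quantile normalization and with cyclic loess. It was also lost without the first treated array (adjusted p = 0.0967) and without the second untreated one (0.0809).

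Of 23 plasma cell and secretory genes 10 fell and 6 rose, against 24.1% and 35.6% of all genes. In the bin of their level 63.5% fell and 5.94% rose. The list's median of -0.49 turned positive with a common median and interquartile range, quantile normalization and cyclic loess. Under these 3 scalings 7 or 8 of the list were higher and 5 lower. Among the 6 were factors of plasma cell differentiation: PRDM1 rose by 0.79, IRF4 by 1.13 and XBP1 by 0.81. PRDM1 read 6.95 and 6.98 untreated and 7.64 and 7.86 treated, and IRF4 6.60 and 6.57 untreated and 7.73 and 7.71 treated, and in neither gene did the groups overlap. Of the 10 that fell, JCHAIN went from 10.82 and 10.59 to 6.15 and 6.44 and the receptor gene TNFRSF17 (BCMA) from 8.55 and 8.90 to 5.26 and 5.32. FKBP11, a prolyl isomerase of the secretory path, fell by 2.37. Of 13 immunoglobulin genes 3 rose and 3 fell, against 35.6% and 24.1% of all genes. Their median of 0.25 turned negative with a common median and interquartile range, with quantile normalization and without the second untreated array. IGKC, the kappa constant region, fell by 1.85 (adjusted p = 0.00457), a call lost with cyclic loess and with the mean of its probe sets. IGHM, the mu heavy chain, was at 0.81 (adjusted p = 0.245), and another IGHM probe set rose by 0.92.

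Hodgkin Reed-Sternberg cells are B cells that have lost much of the B-cell program. Of 43 genes typical of them 17 rose, a share near the 35.6% of all genes, while 4 fell and 22 did not pass. The median of 0.49 was 0.15 after level correction. The repressor of B-cell factors ID2 rose by 1.91 (SE 0.59, adjusted p = 0.0131; 0.0698 without the first treated and 0.0824 without the second untreated array) and the signal transducer STAT3 by 1.78. JUN rose by 1.42, the chemokine receptor gene CCR7 by 1.47 and GATA3 by 0.96. STAT6 fell by 2.53 and the costimulator CD86 by 2.12. TNFRSF8 (CD30), the defining surface marker, was at 0.07 (adjusted p = 0.742).

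Genes of antigen presentation were taken by class. Of 15 class II genes 9 fell, against 63.5% in the bin of their level, none rose and 6 did not pass (median -1.001, level-corrected 0.06). The median was -0.15 with a common median and interquartile range (1 higher, 5 lower), -0.18 with quantile normalization (0 and 6) and -0.24 with cyclic loess (2 and 4). HLA-DQA1 read 10.18 and 9.76 untreated and 6.85 and 7.18 treated (difference -2.95, SE 0.35, adjusted p = 2.21e-05). A second HLA-DQA1 probe set was at 0.15 in SU-DHL4 and at 0.22 against the other 5 lines, and neither passed. CD74, the invariant chain, read 12.65 and 12.70 untreated and 11.44 and 10.92 treated, a fall that did not pass with a common median and interquartile range. CIITA, the master activator of class II genes, was at 0.42 (adjusted p = 0.0753). On the brighter probe set HLA-DQA1 differed by 1.39 in Daudi and 1.30 in Namalwa. Of 15 class I genes 4 rose and 6 fell, against 35.6% and 24.1% of all genes. Their median of -0.12 turned positive with a common median and interquartile range, quantile normalization and cyclic loess, and without the second treated array. HLA-B, HLA-C and HLA-E, which present peptides, rose by 1.98, 1.35 and 1.16. The immunoproteasome genes PSMB8, PSMB9 and PSMB10 and the loading factors TAPBP and PDIA3 had differences of -2.34, -1.46, -2.02, -2.11 and -2.67, all past the test, and another TAPBP probe set was called the opposite way.

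Of 40 interferon-stimulated genes 6 rose in SU-DHL4, against 35.6% of all genes, 5 fell, against 24.1%, and 29 were not called. The median of 0.29, which was negative with a common median and interquartile range, was close to that of all genes. The same list had medians of 2.23 in Namalwa, 2.62 in Raji and -0.51 in Daudi. IRF7, CXCL9, OAS3 and CXCL10 rose by 1.38, 1.20, 1.04 and 1.02. The DNA sensor IFI16 read 9.69 and 9.85 untreated and 5.97 and 6.30 treated, and the antiviral gene TRIM22 9.12 and 9.06 untreated and 6.16 and 5.99 treated. TRIM22 was higher after treatment in Namalwa and Raji, by 1.44 and 1.87, and lower in the remaining 3 lines. The classical targets IFIT1, MX1 and ISG15 were at 0.12, 0.29 and -0.15 and did not pass. Of 26 NF-kB genes 6 rose and 5 fell, against 35.6% and 24.1% of all genes (median 0.13). The subunit gene REL fell by 2.68, with another probe set called the opposite way, and the inhibitor gene TNFAIP3 rose by 1.07.

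Some targets of the drugs were themselves lower. DNMT1, the maintenance methyltransferase that 5-aza-dC traps, read 10.15 and 10.24 untreated and 7.66 and 7.53 treated (difference -2.60, SE 0.28, adjusted p = 9.93e-06). DNMT3B, which methylates DNA anew, rose by 0.59, and DNMT3A was at 0.21 (adjusted p = 0.29). Of the 13 genes of DNA methylation 5 fell and 2 rose, against 24.1% and 35.6% of all genes. The glycosylase gene TDG fell by 3.58, with another probe set at -0.46. The methyl-binding gene MBD2 fell by 3.59 on its brightest probe set only. Its other probe sets, at 0.62, 0.63 and 0.36, were all called higher.

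Of 29 deacetylase and acetyltransferase genes 11 fell and 6 rose, against 24.1% and 35.6% of all genes. In the bin of their level 47.5% fell and 11.7% rose. The list's median of -0.08 was positive with quantile normalization and cyclic loess. HDAC1 read 11.03 and 11.18 untreated and 10.19 and 9.85 treated (difference -1.08, adjusted p = 0.00332), and after level correction it was 0.19. HDAC2 fell by 1.39, HDAC3 was at 0.19, and HDAC6 and HDAC11 rose by 0.81 and 0.52. HAT1, which acetylates new histones, fell by 2.98 and the acetyltransferase gene EP300 by 1.38. Of 18 Polycomb genes 7 fell and 6 rose, against 24.1% and 35.6% of all genes. Their median of 0.18 was negative with a common median and interquartile range, with dim genes left out and with the mean of probe sets. The core of the methylating complex went down: EZH2 read 8.62 and 8.95 untreated and 6.42 and 5.87 treated, EED fell by 2.28 and SUZ12 by 0.91. Another EED probe set was at 0.03. EZH1, the paralogue of EZH2 found in resting cells, rose by 0.69.

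Of 31 measured genes known to rise with TSA 18 rose, 4 fell and 9 did not pass. Of all genes 35.6% rose, and 53.1% in the bin of this list's level. The list was chosen with earlier results of these data known, so the count is no independent test. The list's median was 1.13 (0.60 after level correction). DHRS2, a dehydrogenase, read 8.01 and 7.69 untreated and 10.09 and 9.80 treated, a rise of 2.10, while the other 5 lines differed by 1.88 to 4.48. TUFT1 read 6.23 and 5.91 untreated and 9.12 and 8.21 treated, and the histone gene H2BC5 7.21 and 6.80 untreated and 8.89 and 8.95 treated. The cytoskeletal gene GSN rose by 1.13 and the sialidase gene NEU1 by 1.76. Of 26 histone genes 9 rose, a share near the 35.6% of all genes, and 4 fell. Their median of 0.32 was -0.23 with a common median and interquartile range and -0.10 with cyclic loess. The 4 that fell were the replacement variants H2AZ1 (-2.74), H2AX (-1.97), MACROH2A1 (-1.77) and H2AZ2 (-1.41), all bright before treatment. Another H2AX probe set was called the opposite way.

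Metallothionein genes, whose products bind zinc and copper, rose in 8 of 9 measured cases (median 1.07, level-corrected 1.40). Of all genes 35.6% rose, and 11.7% in the bin of this list's level. MT2A read 9.76 and 9.09 untreated and 11.70 and 11.48 treated, and MT1X 9.65 and 8.89 untreated and 11.53 and 11.16 treated. Their near-identical sequences may share signal between probe sets. MT1M did not pass, at 0.11. Of 39 genes of lysosome and autophagy 15 rose, near the share of all genes but against 11.7% in the bin of their median untreated level, and 7 fell (median 0.43, level-corrected 0.65). The kinase ULK1, which starts autophagy, read 6.94 and 6.67 untreated and 8.95 and 8.90 treated, and the lysosomal channel gene MCOLN1 7.42 and 7.27 untreated and 9.40 and 9.36 treated. ATG5, which conjugates ATG12, fell by 1.75.

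Genes of the cancer-testis and germline kind are commonly methylated in other tissues. Of 28 measured 12 rose, none fell and 16 did not pass, against 35.6% of all genes and 55.7% in the bin of their level that rose. Their median of 0.50 was 0.09 after level correction, and with a common median and interquartile range it was -0.07, with 5 rises and 6 falls. SSX3 read 6.82 and 6.60 untreated and 7.51 and 8.06 treated, and ACTL8 7.10 and 7.15 untreated and 8.35 and 7.999 treated. MAGEA12 rose by 1.002, from a level in the dimmest bin, and its call was lost under each of the 4 scalings and without any 1 of the 4 arrays (adjusted p = 0.0676 to 0.175).

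Of 36 neuronal genes 20 rose, against 57.4% in the bin of their level and 35.6% of all genes, and 1 fell (median 0.60, level-corrected 0.15). The neuronal enolase gene ENO2 rose by 1.62, the kinesin KIF5A by 1.27 and the vesicle protein gene CHGB by 1.20, while the tubulin gene TUBB3 fell by 1.36. The call of ENO2 was lost without the first untreated array (adjusted p = 0.0505). That of TUBB3 was lost without the second treated array (0.1001), without the second untreated one (0.0744) and under 3 of the 4 scalings. Of 15 imprinted genes 5 rose and 3 fell, against 35.6% and 24.1% of all genes. Their median of 0.24 was negative with dim genes left out. MAGEL2 rose by 1.45 and MEST, a gene read from the paternal copy, fell by 2.88.

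Some markers of cells that should be absent rose as well. Of 17 T and NK cell markers 11 rose, against 35.6% of all genes and 54.8% in the bin of their level, and 1 fell, LCK at -3.14 (median 0.63, level-corrected 0.24). CD8A read 6.51 and 6.39 untreated and 7.83 and 7.74 treated and CD2 6.99 and 6.92 untreated and 7.87 and 8.46 treated, while CD3D was at 0.18. Of 14 myeloid markers 4 rose and none fell, with a median of 0.20 that was negative with a common median and interquartile range, quantile normalization and cyclic loess. Of 15 markers of epithelium, endothelium, stroma and liver 7 rose and none fell, with a median of 0.33 that was negative with a common median and interquartile range. LYZ, the myeloid gene, read 4.21 and 4.17 untreated and 4.54 and 4.37 treated, and EPCAM 4.41 and 4.22 untreated and 4.73 and 4.55 treated, so both stayed at the level of the dimmest bin. Of the brighter markers, CSF1R went from a mean of 6.34 to 7.25, MPO from 5.35 to 6.18 and PECAM1 from 6.80 to 7.76. CD14 went from 5.70 to 5.80, KRT8 from 5.60 to 5.88 and COL1A1 from 8.08 to 8.38. The median untreated level was 6.55, 5.45 and 5.60 for these 3 lists. Over all genes the median difference was 0.47 in the second and 0.51 in the fourth of the 10 bins, where 55.7% and 54.8% of genes rose. Their part in the other results was not tested.

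**Figure D4:**
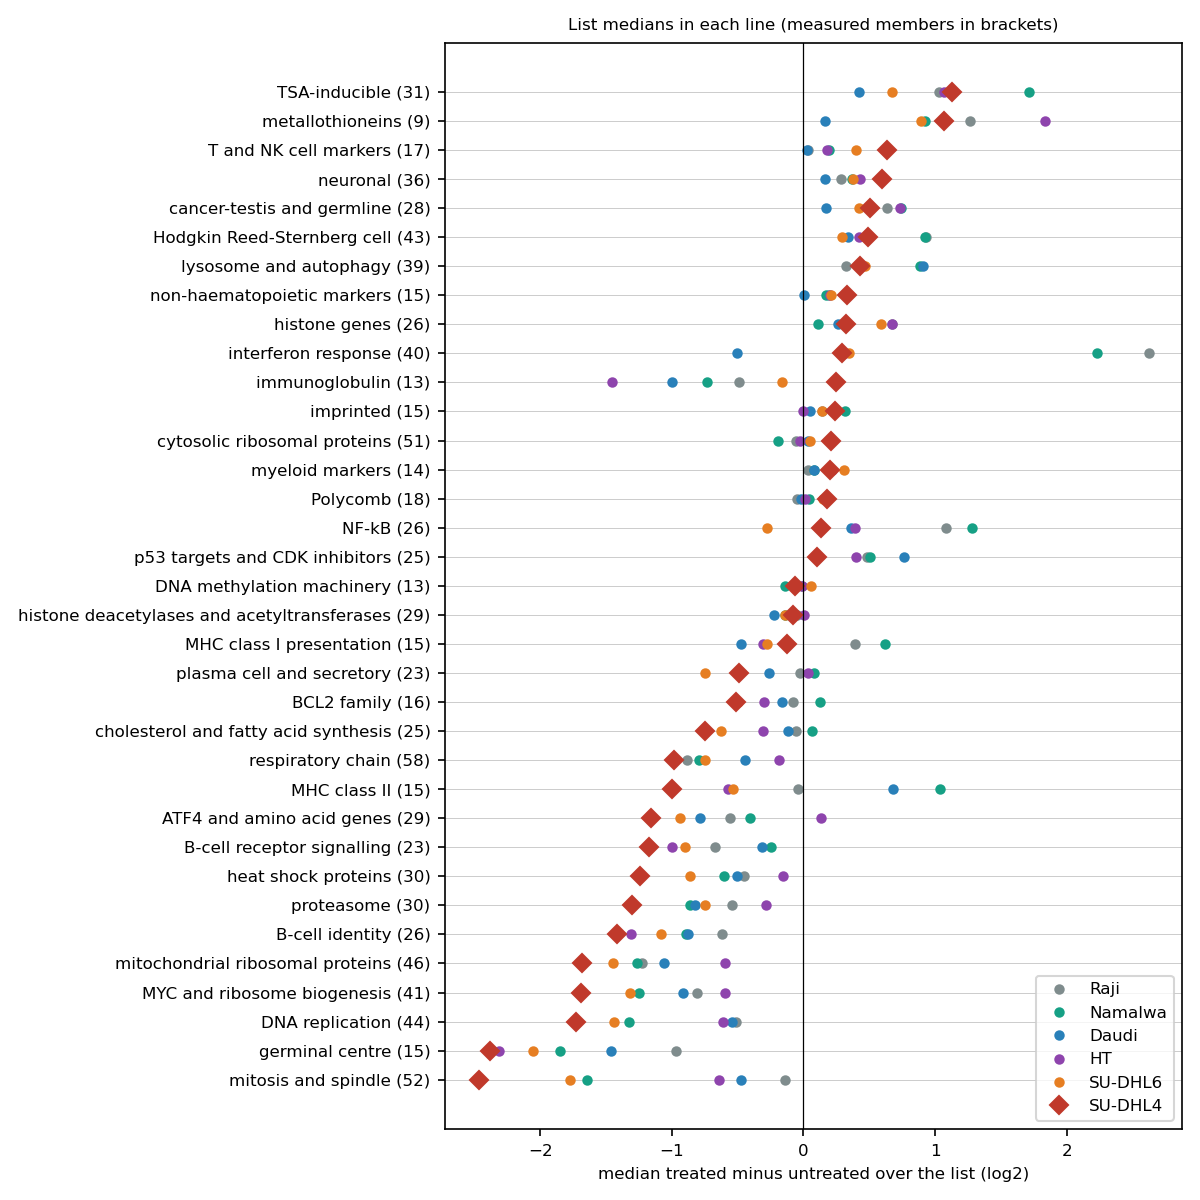
Median treated minus untreated difference (log2) over the measured members of 35 gene lists in each of the 6 lines, with diamonds for SU-DHL4 and circles for the other lines. The SU-DHL4 median lies below all 5 other lines in 15 lists and above all 5 in 6.

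Genes of cell survival went in either direction. Of 16 BCL2 family genes 5 fell and 3 rose, against 24.1% and 35.6% of all genes (median -0.51). BCL2 itself read 7.24 and 6.84 untreated and 7.08 and 7.09 treated (difference 0.04, SE 0.24, adjusted p = 0.886), so the groups overlapped. The protective gene BCL2L1 (BCL-xL) fell by 1.54, but its other probe sets, at -0.53 and -0.11, did not pass. The genes of cell death BID and BAX fell by 2.42 and 1.66. HRK, a death gene of the BH3-only kind, read 6.49 and 6.36 untreated and 7.23 and 8.16 treated and rose by 1.27. In the other 5 lines HRK differed by -0.92 to 0.33.

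The size of the SU-DHL4 response was next set against the other lines. Calls in the other lines numbered 1912 higher and 2011 lower in SU-DHL6, 1293 and 1222 in Daudi, 1307 and 1583 in Namalwa, 671 and 1220 in Raji and 264 and 300 in HT. Over the 11963 genes, which are not independent, the differences in SU-DHL4 correlated with those in SU-DHL6 at r = 0.80 and with the remaining lines at 0.54 to 0.62. Against the mean of the other 5 lines, 3476 genes (29.1%) differed in their response, 1925 with a more positive (16.1%) and 1551 with a more negative difference (13.0%) in SU-DHL4. Of these, 1885 (15.8%) lay above all 5 lines and 1447 (12.1%) below them. Of the 1885, 1831 rose in SU-DHL4, and of the 1447, 1253 fell.

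That test takes the spread between duplicate arrays as its error. With each line as 1 unit, limma called 0 genes, and 3045 had an unadjusted p under 0.05. After the trend on untreated level was also subtracted, the test over lines called 1 gene, and 2037 had an unadjusted p under 0.05. So the differences below are between these arrays, and they are not shown to lie outside the spread between lines. With only SU-DHL6 and HT, the other DLBCL lines, as the comparison, 671 genes were more positive and 682 more negative. HT, with 1 array per state, was assumed to vary like the other lines. Of the 1885 and 1447 genes, 953 and 889 kept their call and side with cyclic loess, and 1349 and 1116 with a common median and interquartile range.

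Cell division genes were frequent among those below the other lines. Of the 52 mitosis genes 40 were more negative in SU-DHL4 than the mean of the other lines and none more positive, and 39 were called and below all 5, against 12.1% of all genes. For replication the count below all 5 was 22 of 44, for MYC and ribosome biogenesis 14 of 41, for chaperones 12 of 30 and for class II genes 7 of 15. The median untreated levels of these lists were high, and the slope on untreated level was steepest in SU-DHL4. With each line level-corrected, the median difference from the mean of the others was -0.83 for mitosis and -0.50 for replication (-1.40 and -0.87 uncorrected). For chaperones, class II genes and MYC and ribosome biogenesis it was -0.33, -0.16 and -0.13 (-0.71, -0.81 and -0.62 uncorrected). The part of the level in these counts was not tested. CDC20 fell by 3.81 in SU-DHL4, was at -2.38 in SU-DHL6 and lay between -0.46 and 1.13 in the remaining lines (SU-DHL4 minus the mean of the others -3.46, SE 0.36, adjusted p = 9.7e-05). CEP55, which acts in the final cut between daughter cells, read 9.52 and 9.98 untreated and 6.17 and 6.17 treated and differed from the others by -3.32, with SU-DHL6 at -2.09. CENPU, a centromere protein, read 9.53 and 9.84 untreated and 6.73 and 6.14 treated and differed by -3.11. RRM2 and HMGB2 differed by -3.14 and -3.13. RRM2 was at -3.61 in SU-DHL6 and -2.78 in Namalwa. SU-DHL4 minus SU-DHL6 did not pass for RRM2 (-1.05, adjusted p = 0.187), CDC20 (-1.43, adjusted p = 0.0857) or CEP55 (-1.49, adjusted p = 0.0974).

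Further genes that fell in SU-DHL4 had other roles. LEF1, a transcription factor of the Wnt pathway, read 10.09 and 10.001 untreated and 5.93 and 6.14 treated, and the difference was -2.52 in SU-DHL6 and -2.13 in Namalwa, while HT, Raji and Daudi differed by 0.83, 0.33 and 0.06 (SU-DHL4 minus the others -3.33, SE 0.33, adjusted p = 6.56e-05). For LEF1 the difference from SU-DHL6 alone did not pass (-1.50, adjusted p = 0.054). The other LEF1 probe sets were at -0.95, which passed the test, and at -0.01. The tubulin gene TUBB6 read 10.13 and 10.17 untreated and 7.94 and 7.36 treated, and every other line was higher after treatment, by 0.32 to 1.34 (-3.19, SE 0.24, adjusted p = 8.48e-06). ZMIZ1, a coactivator, read 9.92 and 9.92 untreated and 6.40 and 6.09 treated, and among the others HT came closest, at -2.78 (-3.12, SE 0.39, adjusted p = 0.000279).

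A pair of genes lay below the other lines without a fall in SU-DHL4. CCNA1, a cyclin of the male germ line, read 5.78 and 5.98 untreated and 5.95 and 6.005 treated, with overlapping groups, while the difference was 6.48 in Raji, 5.86 in Namalwa and 2.89 in HT (-3.26, SE 0.49, adjusted p = 0.000781). SU-DHL6 and Daudi differed by 0.45 and 1.11, and against SU-DHL6 and HT alone the CCNA1 call was lost. TKTL1, a transketolase-like gene of the X chromosome, read 6.39 and 6.40 untreated and 7.21 and 7.42 treated (difference 0.92, adjusted p = 0.163), against 3.33 to 5.42 in the other 5 lines (-3.25, SE 0.61, adjusted p = 0.00256). A second TKTL1 probe set rose by 1.47 in SU-DHL4, and its difference from the mean of the others was -3.49. CCNA1 is known to be methylated in several tumour types, and the 250 bases before the starts of both genes are shown with CG in capitals (RefSeq, GRCh38.p14). TKTL1 has 13 CG (chrX:154295545-154295794, plus strand) and CCNA1 31 (chr13:36431705-36431954, plus strand). The difference from SU-DHL6 alone did not pass for TKTL1 (-2.73, adjusted p = 0.0581) or CCNA1 (-0.35, adjusted p = 0.792). The median number of CG over all genes tested was 19, and it was 15 for genes that rose and 22 for genes that fell in SU-DHL4.
TKTL1: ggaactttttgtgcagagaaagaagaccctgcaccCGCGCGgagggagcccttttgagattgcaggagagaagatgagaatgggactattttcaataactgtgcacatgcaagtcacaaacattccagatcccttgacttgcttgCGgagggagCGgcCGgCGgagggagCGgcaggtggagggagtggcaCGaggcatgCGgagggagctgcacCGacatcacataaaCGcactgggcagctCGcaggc
CCNA1: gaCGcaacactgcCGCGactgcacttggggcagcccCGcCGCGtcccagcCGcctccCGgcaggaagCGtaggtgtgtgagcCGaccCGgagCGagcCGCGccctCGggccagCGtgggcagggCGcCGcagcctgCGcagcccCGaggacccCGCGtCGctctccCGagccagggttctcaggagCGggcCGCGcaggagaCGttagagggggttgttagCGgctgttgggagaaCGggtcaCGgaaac

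Above the other lines, the leading gene was IGHM. It read 6.70 and 6.57 untreated and 7.47 and 7.42 treated in SU-DHL4, a difference that did not pass, while the other 5 lines lay between -4.10 and -0.95 (3.86, SE 0.65, adjusted p = 0.00144). The untreated levels were near the medians of these arrays, 6.77 and 6.72. Against the other lines, other IGHM probe sets were at 2.71 and 0.996, which passed, and at 0.16 and 0.08, which did not. The probe set at 0.996 rose within SU-DHL4, by 0.92. LTB, which encodes the cytokine lymphotoxin beta, read 8.20 and 7.30 untreated and 7.86 and 7.59 treated, with overlapping groups, against -3.14 to -1.82 in the others (2.30, SE 0.31, adjusted p = 0.000433). IGLL1, of the surrogate light chain, and MID1IP1, of lipid synthesis, also did not pass within SU-DHL4 and differed from the others by 2.19 and 2.20. In these 4 genes all or most of the other lines had negative differences.

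Among the genes above the other lines, SCD5, KCNV1, AK4, UBE2L6 and CDC5L rose within SU-DHL4. For SCD5 the difference was also positive in SU-DHL6 (1.43) and HT (1.37), against -1.35 to -0.14 in the Burkitt lines. SU-DHL4 minus SU-DHL6 did not pass for SCD5 (1.66, adjusted p = 0.293). KCNV1 rose by 2.29 against -0.34 to 1.03 elsewhere (2.11, SE 0.21, adjusted p = 6.56e-05). CDC5L, a splicing factor, read 8.34 and 9.31 untreated and 10.72 and 10.95 treated (2.52 against the others). Its other probe sets were at -1.11 and -1.27, both called lower, and at 0.43, which did not pass. None of these passed against the other lines, so the CDC5L result rests on a single probe set. AK4, a mitochondrial adenylate kinase, rose by 1.52 and UBE2L6, which conjugates ISG15, by 1.74. PLAC8 was at 1.63 (adjusted p = 0.0552) and differed by 2.58. Differences from the other lines that lost their call without an SU-DHL4 array were those of UBE2L6 (without any of the 4, adjusted p = 0.0510 to 0.0783), PLAC8 (without any but the first treated array, 0.0666 to 0.131) and MID1IP1 (without the first untreated array, 0.0549). Those of SCD5 and AK4 lost theirs without the second treated array (0.0547 and 0.0810) and without the first untreated one (0.0594 and 0.0615).

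**Figure D5:**
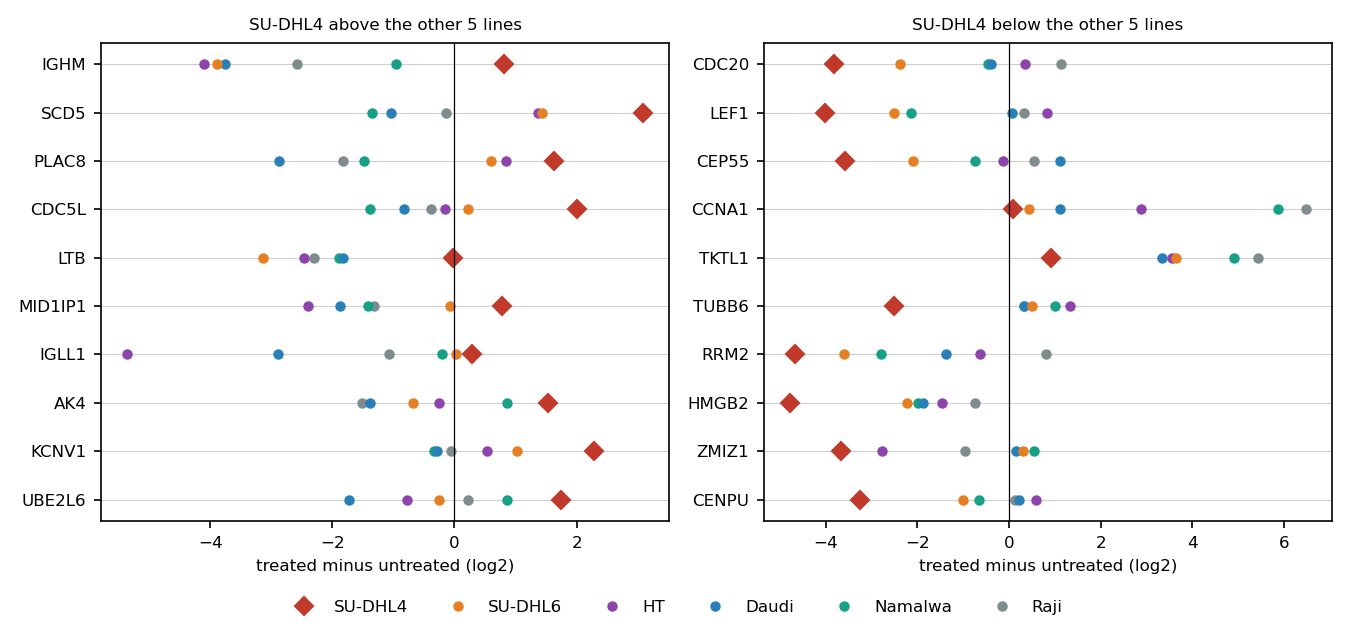
Treated minus untreated difference (log2) in each of the 6 lines for the 10 genes furthest above (left) and 10 furthest below (right) the mean of the other 5 lines in SU-DHL4. Genes were picked among those called whose SU-DHL4 difference lay outside the range of the other 5 lines. For CCNA1 and TKTL1 the SU-DHL4 diamond lies near 0 or 1 and the other lines lie higher, while for IGHM and LTB it lies near 1 or 0 and the other lines lie lower.

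SU-DHL6 was the line most like SU-DHL4. The response differed between them for 645 genes (5.39%), of which 359 were more positive and 286 more negative in SU-DHL4. The second treated SU-DHL6 array stood apart in its 3' minus 5' values, at 2.08 for ACTB and 1.34 for GAPDH. Without it 965 genes were more positive and 1071 more negative, and of the first calls 353 and 277 were kept. Leaving out any other array of the pair of lines gave between 96 and 369 more positive and between 89 and 238 more negative.

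The largest differences from SU-DHL6 ran in both directions. MEF2C, a transcription factor of B-cell activation, read 10.41 and 10.65 untreated and 6.92 and 6.78 treated in SU-DHL4 and differed by 0.66 in SU-DHL6 (-4.34, SE 0.53, adjusted p = 0.000561). ZMIZ1 differed by -3.99, and FAIM, an inhibitor of FAS-driven death, read 7.92 and 8.03 untreated and 4.47 and 4.61 treated against 0.11 in SU-DHL6 (-3.55, SE 0.27, adjusted p = 1.82e-05). MEST and LRIG1, an inhibitor of growth factor receptors, differed by -3.36 and -3.12.

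In the other direction IGHM differed by 4.69 and LTB by 3.11. The neuronal factor gene CUX2 was dim in SU-DHL4, at 5.35 and 5.004 untreated and 4.93 and 5.04 treated, and differed by -3.77 in SU-DHL6 (3.57, SE 0.39, adjusted p = 0.000287). PHGDH, the first enzyme of serine synthesis, rose by 0.98 in SU-DHL4 and was at -2.06 in SU-DHL6 (3.04). RPP25, a subunit of ribonuclease P, read 5.59 and 5.33 untreated and 5.96 and 6.05 treated in SU-DHL4 and was at -2.38 in SU-DHL6 (2.93).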

How the data were processed

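The deposited value table holds log2 expression that the authors made by RMA, per the design text and the submitters' processing notes, which name R 2.10.1. RMA brings arrays to a common probe distribution before it summarises probe sets. Even so, the treated SU-DHL4 arrays kept a narrower range, and differences moved with the level of a gene. Arrays carry no read depth, and their number limits the precision. The 68 control probe sets were left out, as were 1043 probe sets with several symbols and 2107 with none. The authors' deposited table of statistics was not used here.

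limma 3.58.1 in R 4.3.3 was fitted with 12 group means to the 22 arrays (lmFit and eBayes, two-sided). The contrasts were the SU-DHL4 effect, that effect minus the mean effect of the other 5 lines, and that effect minus the SU-DHL6 effect. Alternatives changed the scaling, the filter on dim genes, the probe set, the error model, the replicate block and the arrays or lines included. Counts per list are of genes past the threshold over all 11963 genes, with no test of the list. The level trend was a lowess curve with a span of 0.3. The fit was tested on simulated data before use.

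Genes were named by a rule. Among those called it took the 12 largest rises and falls whose treated arrays both lay beyond both untreated arrays. Also among those called it took the 10 genes furthest above and below the other 5 lines, if outside their range. The 5 called genes furthest above and below SU-DHL6, up to 4 members per list by size of difference and 19 set genes were added. Further list members were named after their values were seen. The members and the 35 lists (976 of 1138 memberships measured) were chosen with earlier results of these data known. Of 79 named genes with a call and more than 1 probe set, 43 had another probe set without the same call, and 9 had another with the opposite call. RefSeq promoters were matched by symbol for 9563 genes. They run from 250 bases before to 50 after the start, and only the 250 bases before it were used.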

Additional observations from a re-analysis of the deposited data

Results flagged for a closer look

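Results in which the response of SU-DHL4 differed from that of other lines are listed here, each by the limma test of the difference itself on arrays. Against the mean of the other 5 lines 3476 genes differed, and against SU-DHL6 645 did. With lines as units no gene passed the first of these tests, by limma, and 3045 had an unadjusted p under 0.05.

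The difference in response, SU-DHL4 minus the mean of the other 5 lines, was 3.86 for IGHM, 3.04 for SCD5, 2.58 for PLAC8, 2.52 for CDC5L and 2.30 for LTB. It was 2.20 for MID1IP1, 2.19 for IGLL1, 2.12 for AK4, 2.11 for KCNV1 and 2.07 for UBE2L6. On the other side it was -3.46 for CDC20, -3.33 for LEF1, -3.32 for CEP55, -3.26 for CCNA1 and -3.25 for TKTL1. It was -3.19 for TUBB6, -3.14 for RRM2, -3.13 for HMGB2, -3.12 for ZMIZ1 and -3.11 for CENPU.

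SU-DHL4 minus SU-DHL6 was 4.69 for IGHM, 3.57 for CUX2, 3.11 for LTB, 3.04 for PHGDH and 2.93 for RPP25. It was -4.34 for MEF2C, -3.99 for ZMIZ1, -3.55 for FAIM, -3.36 for MEST and -3.12 for LRIG1. These 10 genes kept their direction and their call without each of the 4 SU-DHL6 arrays in turn. The cause of these differences was not tested. Groups of 2 arrays are too small for a check of single outlying arrays.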

How the results depend on the processing

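The SU-DHL4 effect gave 2763 genes higher with cyclic loess and 1887 with dim genes left out (7178 genes tested), against 4257, and 4519 probe sets were lower when each was tested separately, against 2881 genes. Leaving out 1 SU-DHL4 array gave 2908 to 3663 higher and 2338 to 2584 lower. Against the other 5 lines, genes higher numbered 1263 with cyclic loess, 738 with dim genes left out and 671 against SU-DHL6 and HT alone, where 682 were lower. With lines as units 0 were higher and 0 lower, and after the level trend was subtracted 0 and 1. Without 1 SU-DHL4 array 860 to 1734 were higher and 695 to 1230 lower. Against SU-DHL6, genes higher numbered 571 with quantile normalization, 142 with dim genes left out and 96 with array weights, and genes lower 114 with array weights and 443 over probe sets. Without 1 array of either line 96 to 965 were higher and 89 to 1071 lower, the highest values without the second treated SU-DHL6 array.

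Same-numbered arrays did not deviate together: their deviations correlated at -0.0020 for SU-DHL4 and at -0.12 to 0.03 for the remaining duplicated lines. This cannot show whether same-numbered arrays share a culture or a run, which the labels do not say. With the replicate block, the effect had 3872 higher and 2804 lower, the comparison with 5 lines 1500 and 1380, and that with SU-DHL6 112 and 147.

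Among named genes, CXCR4 (-1.13) and HDAC1 turned to 0.087 and 0.19 after level correction, and FCGR1A (0.69) to -0.20 with a common median and interquartile range (adjusted p = 0.216). The cause was not tested, apart from the fewer genes or arrays that some settings hold by construction. Precision is limited by 2 arrays per state, the dimness of many genes that rose and the range of the treated arrays.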
